A study of Homo sapiens with 6 samples.

Results

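Aldo-keto reductases are NADPH-dependent enzymes that reduce aldehydes and ketones to alcohols. Here 10 genes of the family were taken by symbol from tables of 59050 gene symbols, and all 10 were found: AKR1A1, AKR1B1, AKR1B10, AKR1B15, AKR1C1, AKR1C2, AKR1C3, AKR1C4, AKR7A2 and AKR7A3. RNA-seq reads per gene were compared between 3 libraries labelled SMARCA4 knockout and 3 labelled parental (genotype WT), all from vehicle-treated H2122, a cell line established from a human lung carcinoma. The protein made from SMARCA4 is the motor of SWI/SNF, which moves nucleosomes along DNA. The sample titles carry a further number, which was 1 in all 3 knockout libraries and 1, 3 and 6 in the parental ones; the labels do not say what it marks, so whether the knockout libraries come from a single clone is not given. Nor do they say that replicates were separate cultures, so a p-value here reflects the spread among these samples alone, and that spread may be technical.

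The enzymes are usually described by what they reduce. The AKR1B branch holds aldose reductase (AKR1B1), which turns glucose into sorbitol in the polyol pathway, and AKR1B10, which reduces retinal and lipid-derived aldehydes. The AKR1C branch inactivates or activates steroid hormones, and several family members are known targets of the oxidant-responsive transcription factor NRF2 in lung carcinoma.

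Libraries held 55120937 to 59917980 reads assigned to genes, so 3 reads corresponded to between 0.0497 and 0.0544 CPM (a gene's reads relative to library size, scaled by TMM). Such a limit covers counting error alone. SMARCA4 itself stood at 232, 214 and 335 CPM in the parental and at 20.7, 19.3 and 24.9 CPM in the knockout libraries. The groups did not overlap, and the gene fell from 260.3 ± 65.2 to 21.6 ± 2.93 CPM (SD, n = 3 libraries per group; log2 fold change -3.59, edgeR adjusted p = 0.000176). On the second principal component (17.8% of the variance) the score of parental replicate 3 was 88.4 and those of the other parental libraries were -45.0 and -48.8, and results that rest on it are given with and without it. Of 10 carcinoma epithelium markers, 9 fell and none rose, with a summed level of 3205 to 3473 CPM (knockout) and 8122 to 8471 CPM (parental). Their median log2 fold change was -3.25.

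AKR1C1 and AKR1C2 lie next to each other on chromosome 10 in opposite orientation, 4116 bases apart, and are close copies, so their sequences are shown before their levels. AKR1C1 runs on the plus strand from 4963253 to 4983283 and AKR1C2 on the minus strand from 4987400 to 5018031 (GENCODE 29, GRCh38). The windows compared are the 250 bases before each RefSeq transcription start (GRCh38.p14). Below is the part of each window that lies ahead of any GENCODE exon of the gene within that window, 5′ to 3′ on the gene's own strand. It is chr10:4963165-4963252 on the plus strand for AKR1C1 and chr10:5004024-5004107 on the minus strand for AKR1C2, with the bases of the run that both share letter for letter in capitals.
AKR1C1: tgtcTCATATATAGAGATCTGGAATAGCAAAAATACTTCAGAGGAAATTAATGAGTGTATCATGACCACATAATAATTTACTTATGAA
AKR1C2: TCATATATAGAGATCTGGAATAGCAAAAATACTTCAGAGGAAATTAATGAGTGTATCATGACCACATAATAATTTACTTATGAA
The whole shared run is 245 bases long and covers bases 5 to 249 of the AKR1C1 window and bases 1 to 245 of the AKR1C2 window, and 84 of them are shown. Against these windows, the pair of AKR1C3 windows aligned at 76.8% to 78.7% identity and the AKR1C4 window at 68.8% to 69.3%. Both genes have GENCODE starts ahead of the RefSeq ones. For AKR1C2 the GENCODE gene begins at 5018031 on the minus strand, so its whole window lies inside the annotated gene. The last 162 bases of the AKR1C1 window and 166 of the AKR1C2 window run on from the start of a GENCODE exon and are not shown.

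The coding sequences are nearly as close. AKR1C1 and AKR1C2 differed at 19 of 969 coding bases (98.0% identity), while AKR1C1 was 91.4% identical to AKR1C3 and 88.5% to AKR1C4. The 60 coding bases with the most differences between AKR1C1 and AKR1C2, coding positions 103 to 162 counted from the first base of the start codon, show what reads have to tell the genes apart by, with capitals at the 16 positions where the 4 genes are not all the same.
AKR1C1: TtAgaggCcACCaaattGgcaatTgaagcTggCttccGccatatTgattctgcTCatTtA
AKR1C2: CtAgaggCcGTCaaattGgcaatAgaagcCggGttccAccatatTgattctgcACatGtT
AKR1C3: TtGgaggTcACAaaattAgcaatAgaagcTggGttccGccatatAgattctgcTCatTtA
AKR1C4: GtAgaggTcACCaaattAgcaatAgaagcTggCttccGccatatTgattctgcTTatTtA
Within this window AKR1C2 differed from AKR1C1 at 10 positions, and elsewhere the pair shared an identical coding run of 186 bases. AKR1B10 and AKR1B15 were 93.5% identical over 948 aligned coding bases, AKR7A2 and AKR7A3 were 92.1% identical over 993, and AKR1B1 was 77.1% identical to AKR1B10.

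Because of these copies, the share of each coding sequence that occurs in no other annotated gene was computed from GENCODE 29 transcripts, by cutting it into overlapping words on both strands. With words of 75 bases it was 64.5% for AKR1C1 and 59.2% for AKR1C2. Next came AKR7A3 at 81.5%, AKR1C3 at 84.7% and AKR1B10 at 87.1%. The others stood at 92.5% (AKR1B15), 93.1% (AKR1C4), 94.5% (AKR7A2) and 100% (AKR1A1 and AKR1B1). With words of 50 bases AKR1C1 and AKR1C2 were again lowest, at 45.7% and 42.9%. Read length is not given in the sources used here, and the counts of these paralogs are uncertain to the extent that reads could not be placed. Reads without a unique alignment were set apart in a class of their own that held 4.99% to 5.29% of all reads. No exon base of the 10 genes was shared with another annotated gene on either strand.

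**Figure D1:**
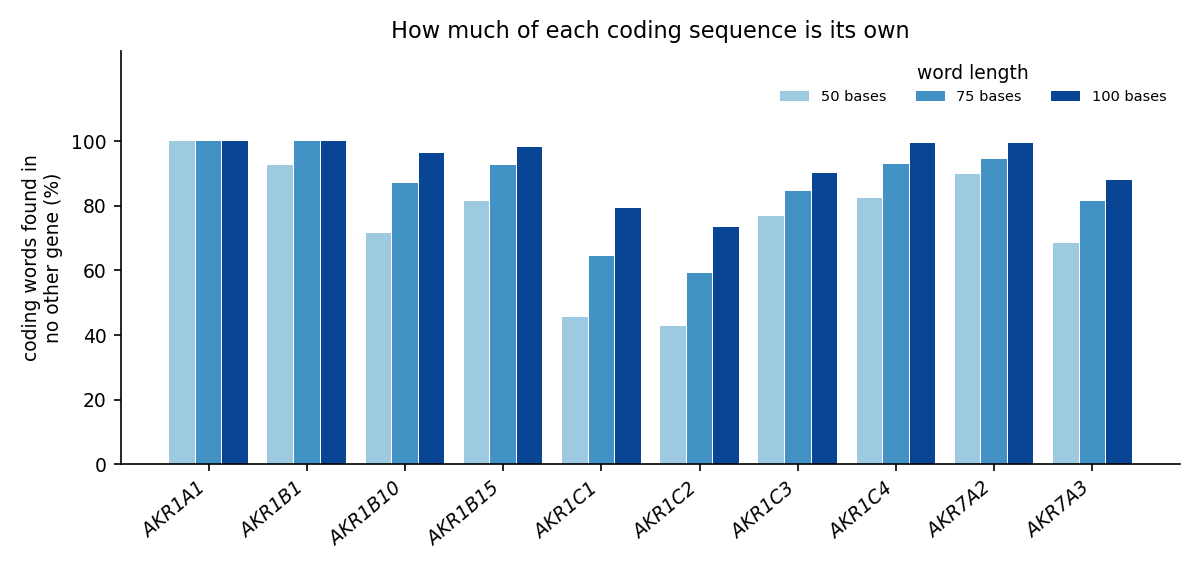
Share of each gene's coding words (overlapping stretches of 50, 75 and 100 bases, in percent) that occurred in no other gene of GENCODE 29, for the 10 members. AKR1C1 and AKR1C2 had the lowest bars at all 3 lengths, and AKR1A1 stood at 100% throughout.

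Of the 10 members, 9 passed the filter on low counts and were tested. AKR1B1, AKR1C2 and AKR1C3 rose in the knockout libraries, AKR1B10, AKR1B15 and AKR1C1 fell, and AKR1A1, AKR7A2 and AKR7A3 did not pass (edgeR quasi-likelihood test, Benjamini-Hochberg adjusted p under 0.05 over 17809 genes). Beside these 6 of 9, 27.6% of all genes tested passed, with 13.3% rising and 14.3% falling. Knockout and parental values were fully apart for 7 of the 9, beside 49.8% of all genes tested. The median log2 fold change was -0.14 over the 9 members and 0.02 over all genes tested. Without parental replicate 3, 4 members rose and 4 fell, where 61.6% of 18372 genes tested passed, 30.8% in each direction.

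**Figure D2:**
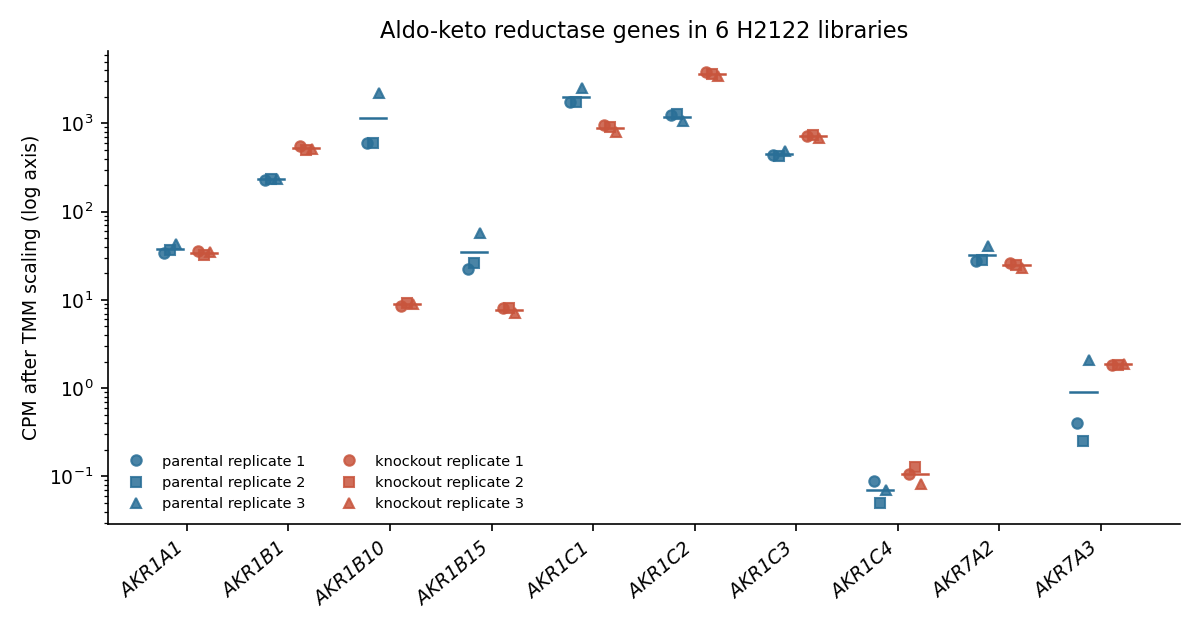
CPM after TMM scaling (log axis) of the 10 members, with 1 symbol per library and a line at each group mean (parental in blue, knockout in red). AKR1B10 lay between 603 and 2222 CPM in the parental libraries and between 8.45 and 9.27 CPM in the knockout ones. AKR1C1 and AKR1C2 changed places by CPM, which is not corrected for gene length.

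AKR1B10 had the largest change of the 9 tested members. It runs from 134527592 to 134541408 on the plus strand of chromosome 7. Its level was 607, 603 and 2222 CPM in the parental libraries and 8.45, 9.27 and 8.93 CPM in the knockout libraries. The groups were far apart, and parental replicate 3 held 3.67 times the mean of the other parental libraries. The log2 fold change was -7.01 (SE 0.69, edgeR adjusted p = 0.000898), and -6.14 (SE 0.0547) without parental replicate 3. Since these are bulk libraries, fewer cells with the transcript and less transcript per cell cannot be told apart, here or below.

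AKR1B15, whose product reduces steroids and retinal, starts 7727 bases downstream of the end of AKR1B10 (chromosome 7, 134549136 to 134579875, plus strand). It stood at 22.3, 26.1 and 57.5 CPM in the parental libraries and at 8.08, 8.004 and 7.16 CPM in the knockout libraries. Parental replicate 3 was again the highest library, and the groups did not overlap (log2 fold change -2.19, SE 0.38, adjusted p = 0.00806, and -1.69 without parental replicate 3). AKR1B10 held between 23.1 and 38.6 times the CPM of AKR1B15 in parental libraries and between 1.05 and 1.25 times in knockout libraries. The part of reads exchanged between the copies in this was not tested.

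AKR1B1 moved the other way. This gene, on the minus strand of chromosome 7 from 134442350 to 134459284, stood at 226, 236 and 235 CPM in the parental libraries and at 552, 503 and 507 CPM in the knockout libraries. Parental replicate 3 did not stand apart here. The rise was 1.16 on the log2 scale (SE 0.10, adjusted p = 0.000506), and 1.12 without parental replicate 3. Of the reads of the 3 AKR1B genes, AKR1B10 took 70.9%, 69.7% and 88.3% in the parental libraries and 1.49%, 1.78% and 1.71% in the knockout ones. AKR1B1 took 26.4%, 27.3% and 9.36% against 97.1%, 96.7% and 96.9%. The 95% Clopper-Pearson intervals of these shares reached at most 0.404 percentage points to either side and cover counting error only.

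**Figure D3:**
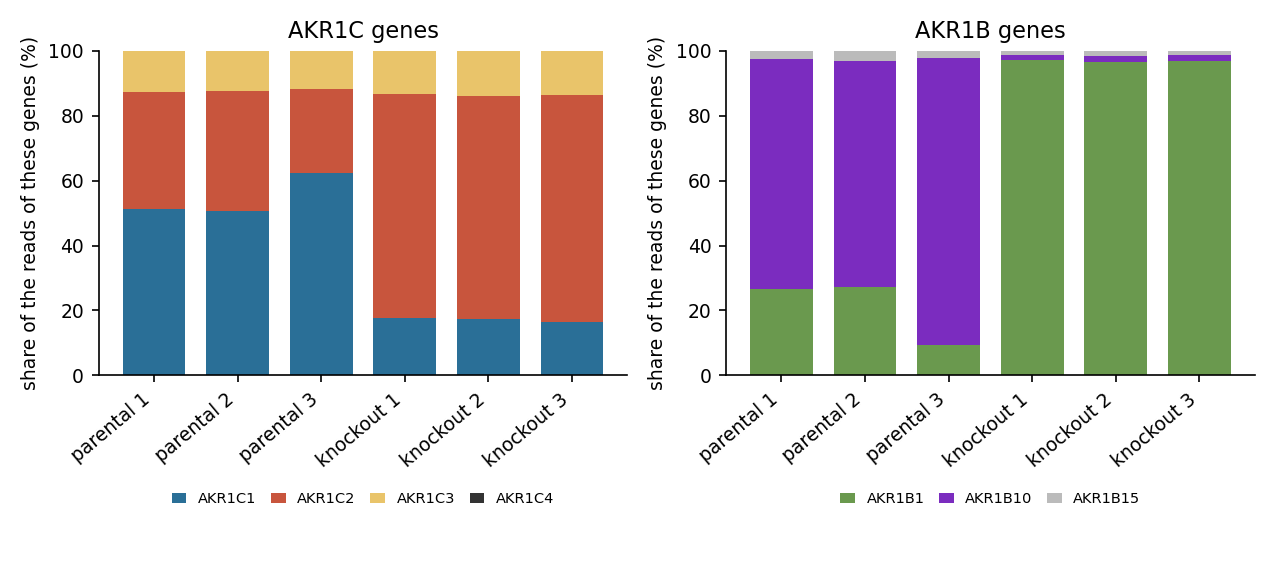
Share of reads (percent) held by each AKR1C gene (left) and each AKR1B gene (right) in every library, stacked to 100%. AKR1C1 held 50.6% to 62.2% of AKR1C reads in the parental libraries and 16.3% to 17.6% in the knockout libraries, and AKR1B1 took the place of AKR1B10 as the main AKR1B transcript.

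In the AKR1C cluster, the closest pair of genes changed in opposite directions. AKR1C2, whose product inactivates dihydrotestosterone, stood at 1239.6, 1263 and 1054 CPM in the parental libraries and at 3795, 3640.1 and 3467 CPM in the knockout libraries. All knockout libraries lay above all parental ones, and the log2 fold change was 1.62 (SE 0.13, adjusted p = 0.000415, and 1.49 without parental replicate 3, the lowest parental library). AKR1C1, whose product inactivates progesterone, stood at 1756, 1736 and 2537 CPM in the parental libraries and at 962, 915 and 807 CPM in the knockout libraries. Its groups did not overlap either, with parental replicate 3 the highest (-1.17, SE 0.19, adjusted p = 0.00629, and -1.01 without that library).

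The ratio of AKR1C2 to AKR1C1 was 0.706, 0.728 and 0.415 in the parental libraries and 3.94, 3.98 and 4.30 in the knockout libraries. AKR1C1 thus gave way to AKR1C2 as the more abundant by read count of the pair, whose windows before the RefSeq start share 245 bases letter for letter, as given above. Their order in the parental libraries depends on the gene length used. Per kilobase of annotated exon AKR1C1 stood higher there (229 ± 52.2 against 184 ± 17.8 CPM). Per kilobase of the longest coding transcript AKR1C2 was already the higher one (316 ± 30.5 against 300 ± 68.2 CPM). Summed, the reads of AKR1C1 and AKR1C2 came to 3195 ± 343 CPM (parental) and 4528 ± 242 CPM (knockout), which is 1.42 times as much, so the sum moved less than either gene alone.

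AKR1C3 makes active androgens and prostaglandin F (chromosome 10, 5035354 to 5107686, plus strand). It stood at 434, 429.7 and 486 CPM in the parental libraries and at 722, 736 and 678 CPM in the knockout libraries, without overlap. It rose by less than AKR1C2 did (0.66, SE 0.11, adjusted p = 0.00664), and the difference between the genes was not tested. Its share of AKR1C reads was 12.4% ± 0.391 in the parental and 13.6% ± 0.370 in the knockout libraries, while that of AKR1C2 went from 32.9% ± 6.16 to 69.4% ± 0.612. The intervals of AKR1C shares reached at most 0.222 percentage points to either side.

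AKR1C4, the liver form that acts in bile acid synthesis (chromosome 10, 5195462 to 5218949, plus strand), was the member removed by the filter on low counts. It had 5, 3 and 4 reads in the parental libraries and 6, 7 and 5 in the knockout libraries, close to the limit of 3 reads, and a change was not detectable at this depth.

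AKR1A1, the general aldehyde reductase (chromosome 1, 45550543 to 45570049, plus strand), stood at 34.0, 36.4 and 42.6 CPM in the parental and at 35.7, 32.2 and 34.9 CPM in the knockout libraries. The groups overlapped (-0.14, SE 0.12, adjusted p = 0.451).

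AKR7A2 and AKR7A3 reduce succinic semialdehyde and dialdehydes formed from aflatoxin, and lie 14714 bases apart on the minus strand of chromosome 1 (19303965 to 19312146 and 19282558 to 19289250). AKR7A2 stood at 27.4, 28.1 and 40.6 CPM in the parental and at 26.1, 25.0 and 23.0 CPM in the knockout libraries. These did not overlap but did not pass the test (-0.37, adjusted p = 0.178). AKR7A3 stood at 0.403, 0.251 and 2.09 CPM in the parental and at 1.84, 1.85 and 1.87 CPM in the knockout libraries. Parental replicate 3 lay above all knockout libraries and the other parental libraries lay below them, which gave 1.02 with an SE of 0.75 (adjusted p = 0.366). Without parental replicate 3 both genes passed, AKR7A2 at -0.22 (adjusted p = 0.00906) and AKR7A3 at 2.45 (adjusted p = 1.91e-06).

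**Figure D4:**
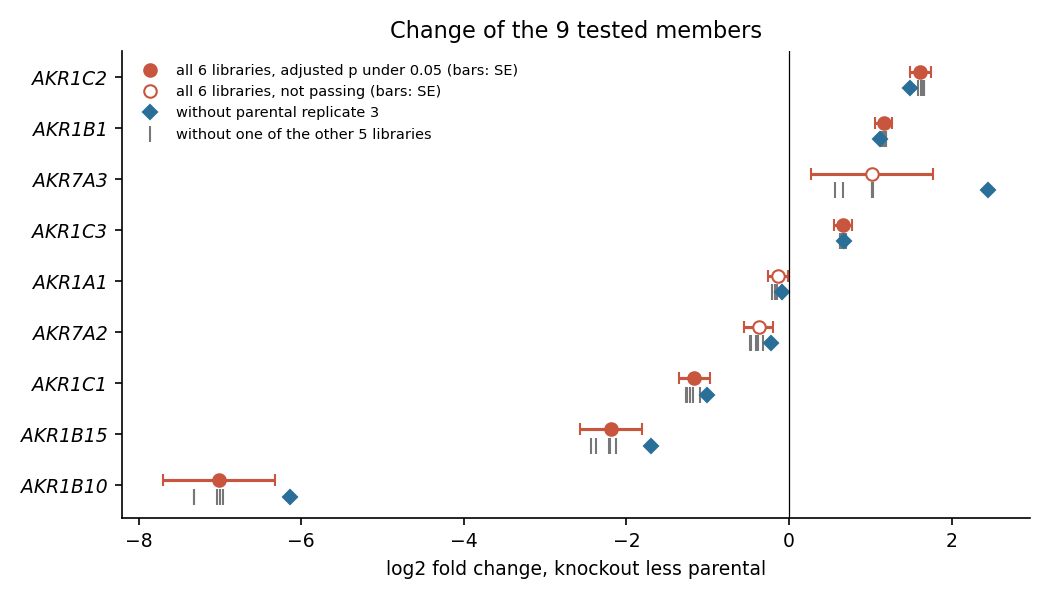
Log2 fold change (knockout less parental) of the 9 tested members, with SE bars for the fit on 6 libraries, filled where the adjusted p was under 0.05, and the values with 1 library left out below each. AKR1B10 lay at -7.01, AKR1C2 at 1.62, and AKR7A3 moved from 1.02 to 2.45 without parental replicate 3.

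Per kilobase of annotated exon, the order of the members differed between the groups. In the parental libraries AKR1B10 stood first at 656 ± 535 CPM per kilobase, followed by AKR1C1 at 229 ± 52.2, AKR1C2 at 184 ± 17.8, AKR1C3 at 99.3 ± 6.95 and AKR1B1 at 63.5 ± 1.48. AKR1B10 ranged from 346 to 1274 and AKR1C1 from 198 to 289, so that these neighbours did not overlap, but the SD of AKR1B10 was nearly as large as its mean. AKR1C2 ranged from 163 to 196, just under AKR1C1, and their order turned when the length was that of the longest coding transcript or the number of 75-base words found in no other member.

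In the knockout libraries AKR1C2 stood first at 562 ± 25.4 CPM per kilobase, followed by AKR1C3 at 157 ± 6.70, AKR1B1 at 142 ± 7.39 and AKR1C1 at 102 ± 9.06, with AKR1B10 at 5.09 ± 0.237. AKR1C3 (149.6 to 162) and AKR1B1 (138 to 151) overlapped in this order. By reads per kilobase, AKR1B10 ranked 64, 64 and 20 among 56378 symbols in the parental libraries, and between 6554 and 6942 in the knockout ones. AKR1C2 went from ranks 121 to 206 to ranks 38 to 40.

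A short motif read by NRF2 and its partners, TGACNNNGC, was searched on both strands of the 250 bases before the start for the 8 of 10 members matched in the RefSeq table (GRCh38.p14), all but AKR1B10 and AKR1B15. It was found for 1 of them, AKR7A2, and in 10.9% of all 35116 windows of the same length. A match is not a site, and its absence says only that these letters are not in this window.

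Genes of the same pathways were described from lists, whose counts stand beside 13.3% rising and 14.3% falling over all genes tested, or 30.8% in each direction without parental replicate 3. HPGD is on the lists of short-chain reductases and of prostaglandin genes, and CBR1 and CBR3 on those of short-chain reductases and of NRF2 targets, so these genes are counted under both. Of 32 NRF2 target genes outside the family, 4 rose, 8 fell and 20 did not pass, beside 27.6% of all genes tested passing. Their median log2 fold change was -0.27, and -0.0082 without parental replicate 3, beside 0.02 and 0.04 over all genes tested. The smallest adjusted p among them belonged to GPX2, a glutathione peroxidase (fell from 349.6 ± 94.7 to 0.929 ± 0.0953 CPM, -8.55, edgeR adjusted p = 2.62e-05), TSPAN7, a tetraspanin (-6.82), and CYP4F3, a fatty acid hydroxylase (-2.55). The risers, named after their values were seen, were NQO1 (0.60, adjusted p = 0.0166) and the export pumps ABCC1 (0.95), ABCC2 (0.45) and ABCC3 (0.95). None of these 4 rises passed when any one knockout library was left out (adjusted p at least 0.057), and 4 falls were then left, while without parental replicate 3 12 targets rose and 13 fell, where 61.6% of all genes tested passed. Leaving out parental replicate 1 or 2 left 2 rises and 6 or 7 falls.

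Of 10 NRF2 regulators, MAFK, a small MAF partner of NRF2, rose from 163 ± 11.5 to 538 ± 47.4 CPM (1.72, adjusted p = 0.000239), and 9 did not pass. Without parental replicate 3, 2 rose and 5 fell. NRF2 itself (NFE2L2) was measured at a log2 fold change of 0.16 (adjusted p = 0.389) and its inhibitor KEAP1 at -0.11 (adjusted p = 0.628; 0.010 without parental replicate 3), both named after their values were seen.

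Of 21 tested short-chain carbonyl and retinal reductases, a separate enzyme family with similar substrates, 6 fell, none rose and 15 did not pass. Of those that fell, DHRS9, a retinol dehydrogenase, had the smallest adjusted p and fell from 143.8 ± 1.82 to 18.7 ± 1.74 CPM (-2.94, adjusted p = 3.09e-05), DHRS3, a retinal reductase, from 109.7 ± 16.8 to 9.89 ± 1.42 CPM (-3.47), and RDH10, a retinol dehydrogenase, from 158.6 ± 39.5 to 65.2 ± 4.03 CPM (-1.28). Without parental replicate 3, 3 members of this list rose and 11 fell. The other falls, named after their values were seen, were of CBR3, DHRS1 and HPGD, and the retinol dehydrogenases RDH11, RDH13, RDH14 and RDH16 did not pass. Of 18 aldehyde dehydrogenases, 2 rose and 2 fell, shares near or under those over all genes. ALDH3B2 fell from 6.03 ± 3.92 to 0.0290 ± 0.00996 CPM (-7.59, and -6.96 without parental replicate 3) and ALDH7A1 rose from 59.4 ± 11.8 to 111.99 ± 4.22 CPM (0.91, adjusted p = 0.00735). ALDH5A1, which oxidises the succinic semialdehyde that AKR7A2 reduces, rose by 0.50 (adjusted p = 0.0256), but did not pass when any single library except parental replicate 3 was removed. In those 5 cases 1 gene of this list rose and 1 fell, and without parental replicate 3 8 rose and 6 fell.

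Of 18 steroid-metabolising enzymes outside the family, 4 fell, none rose and 14 did not pass, beside 14.3% and 13.3% of all genes. SULT2B1, a sterol sulfotransferase, fell from 32.6 ± 14.1 to 0.295 ± 0.0875 CPM (-6.77, adjusted p = 0.000201). HSD17B2, which inactivates androgens and estrogens, changed by -3.07 (0.551 ± 0.277 to 0.0640 ± 0.00998 CPM). Its knockout level was close to the limit of 3 reads. HSD11B1, which regenerates cortisol, had 104 reads in the parental libraries together and 1 in the knockout libraries, 103 times as much after scaling (95% interval from counting alone 18.1 to 4108). The absence of rises held with any other library left out, but 8 rose and 4 fell when parental replicate 3 was removed, beside 30.8% of all genes each way. Of 13 receptors for steroids, retinoids and fatty acids, 5 fell and none rose, among them ESR1 (2.53 ± 0.421 to 0.0234 ± 0.0104 CPM, -6.64), NR3C2 (-2.11) and RARG (-0.61). Without knockout replicate 2 or 3, 3 of them fell, and without parental replicate 3, 2 rose and 8 fell.

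Of 10 tested genes of prostaglandin synthesis and breakdown, 4 fell, 1 rose and 5 did not pass. PTGS1, a cyclooxygenase, fell from 2.37 ± 0.425 to 0.505 ± 0.0368 CPM (-2.23). TBXAS1, thromboxane synthase, fell from 1.29 ± 0.664 to 0.156 ± 0.0435 CPM (-3.02). HPGD, which degrades prostaglandins, changed by -2.72, which missed the threshold without knockout replicate 3 (adjusted p = 0.0515) and was -2.04 without parental replicate 3. The riser was PTGS2 (1.24, adjusted p = 0.0257), named after its values were seen, and it missed the threshold when any single library except parental replicate 3 was removed (adjusted p 0.0621 to 0.0913). PTGFR, the receptor for the prostaglandin that AKR1C3 makes, was at or below the limit of 3 reads and was not tested. Without knockout replicate 3, 2 genes of this list fell, and without parental replicate 3, 4 rose and 6 fell.

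None of 5 tested genes of the polyol pathway and fructose use passed by edgeR (TKFC 0.35, SORD -1.19 with adjusted p = 0.141). SORD, the enzyme after AKR1B1, had a level of 38.5 ± 2.24 CPM (knockout) and 87.9 ± 68.2 CPM (parental), where parental replicate 3 held 167 CPM. DESeq2 called it (-1.24, adjusted p = 0.0452), and without parental replicate 3 it passed at -0.38 and TKFC at 0.44. Of 5 tested rows on the list of other family members (AKR1C8P, AKR7L and KCNAB1 to KCNAB3), KCNAB1 and KCNAB2, which encode potassium channel beta subunits with the same fold, fell (-4.84 and -2.07 on the log2 scale). AKR1C7P, which is not on that list, was also tested and did not pass. KCNAB1 went from 1.56 ± 0.348 to 0.0528 ± 0.0189 CPM, close to the limit of 3 reads in the knockout libraries. KCNAB2 did not pass by limma-voom (-1.75, adjusted p = 0.0739) or by edgeR with a knockout library removed (adjusted p at most 0.136), and without parental replicate 3 its change was -1.16.

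**Figure D5:**
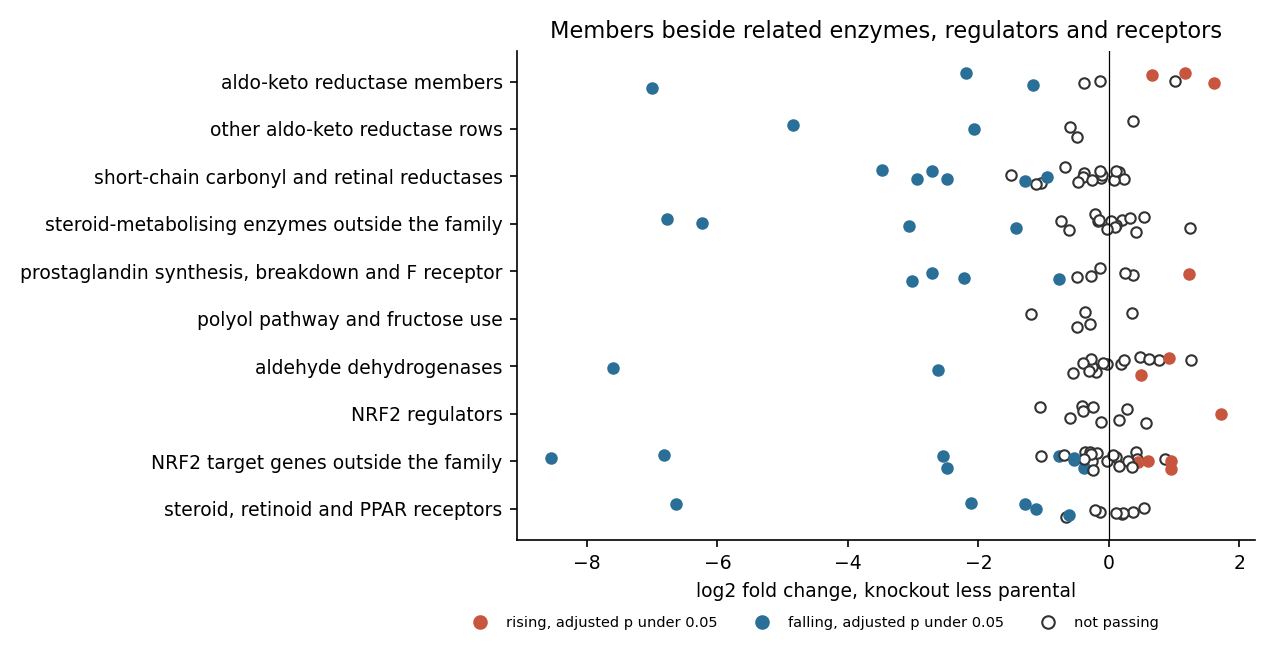
Log2 fold change (knockout less parental) of each tested gene in the family and in 9 lists of related genes, with filled points where the edgeR adjusted p was under 0.05 (red rising, blue falling). AKR1B10 lay at -7.01, and only GPX2 (-8.55) and ALDH3B2 (-7.59) lay lower among the genes plotted.

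Markers of other cell types moved in part. Of 4 tested fibroblast markers out of 8, LUM, COL3A1 and MFAP5 rose and COL1A1 fell, with a summed level of 92.0 to 98.1 CPM (knockout) and 39.5 to 111.6 CPM (parental) and THY1 at 0 reads. Hepatocyte markers summed to 1.77 to 2.09 CPM (knockout) and 0.963 to 10.9 CPM (parental), with 1 of 3 tested falling and TTR at 0. Endothelial markers summed to at most 1.77 CPM (1 of 3 tested rose, ERG at 0) and haematopoietic markers to at most 1.31 CPM (2 of 3 tested fell, PTPRC at 0). Lung lineage markers, of which 2 of 4 tested fell, summed to 1.61 to 2.24 CPM (knockout) and 3.29 to 4.19 CPM (parental). The labelled lung origin was thus hardly visible in them, while the epithelial markers were high in the parental libraries. In the knockout libraries KRT7, KRT8 and KRT18 were still at 1343, 1020 and 809 CPM. The other epithelial markers were much lower there than in the parental libraries, among them KRT19 (1344 to 31.8 CPM), CLDN4 (496 to 4.10 CPM) and CDH1 (341 to 5.56 CPM). Single markers in this paragraph were named after their values were seen. Some of these marker calls changed with 1 library left out: the single hepatocyte fall and the fall of COL1A1 were lost with any knockout library removed, and the endothelial rise with knockout replicate 1 or 3 or parental replicate 1. The part of these markers in the changes of the members was not tested.

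Profiles over the 6 libraries were compared with 10974 genes of at least 5 CPM on average, leaving out only the 10 members. Nearest to that of AKR1C2 were those of PLD1 (Euclidean distance of centred log2 CPM 0.14), MXRA7 (0.17) and ACTN1 (0.17). PLD1 rose from 15.5 ± 0.844 to 45.3 ± 2.68 CPM. Nearest to AKR1B10 were SCNN1A (0.88), CBLC (0.97) and SULT2B1 (1.02), farther from it than the first set was from AKR1C2. SCNN1A, a subunit of the epithelial sodium channel, fell from 82.4 ± 41.3 to 0.753 ± 0.266 CPM.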

How the data were processed

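Read counts per gene symbol were deposited as raw whole numbers, 1 file per library. Per the submitters' processing notes, the authors aligned or counted with tools that include HTSeq 0.11.0 and TopHat2 2.1.1, on build hg38; no source used here gives the annotation release, read length or strand. The 5 unassigned classes (13.8% to 15.3% of reads) entered neither library sizes nor tests. Low genes were removed by filterByExpr (default settings). In R 4.3.3, edgeR 4.0.16 with TMM factors fitted group as the only term and gave a two-sided quasi-likelihood test with robust dispersion, with Benjamini-Hochberg adjustment over the 17809 genes tested and a threshold of 0.05. The SE was derived from the F value. Positions, exon lengths and transcripts are from GENCODE 29, the windows before the start from RefSeq, and alignments were made with Biopython 1.88. The edgeR fit was tested on simulated data. Other genes are marked where they were named after their values were seen.

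The members and lists were chosen with earlier results of these data known. Named genes were the members, SMARCA4, up to 3 passing genes of each of 9 lists by adjusted p (2 by mean CPM where none passed), and the 3 nearest profiles to the most abundant and to the most changed member. As alternatives, the factors were RLE or upper-quartile, the filter was dropped or set to 1 CPM in at least 3 libraries, the tool was limma-voom (limma 3.58.1) or DESeq2 1.42.0, a replicate block was added, each library was left out, paralogs were summed and other gene lengths were used.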

Additional observations from a re-analysis of the deposited data

How the results depend on the processing

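Each of the 6 members that passed kept its direction under all 13 alternative fits, and 5 of them stayed past the threshold in every one. With 1 library left out, the number of genes rising ranged from 1221 to 5665 and of genes falling from 1471 to 5660, the highest being without parental replicate 3, and AKR1B15 reached an adjusted p of at most 0.0488 over all alternatives. Same-numbered libraries did not deviate together (r = -0.04, 0.00 and -0.06 over genes, with no library correlating best with its own number). With 3 libraries per group such values cannot decide whether the numbers pair them, and the labels state no pairing. With the replicate block, 1378 genes rose and 1662 fell, and AKR1C3, at 0.66, had an adjusted p of 0.0501 and KCNAB2 one of 0.0734. Summing the reads of AKR1C1 to AKR1C4 turned the log2 ratio of AKR1C1 from a fall into 0.52, because AKR1C2 and AKR1C3 enter the sum, and KEAP1, which did not pass, ranged from -0.20 to 0.010 with 1 library left out, above 0 only without parental replicate 3. Depth limits AKR1C4, which had 3 to 7 reads per library.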

Other observations

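Together the 10 members held 0.605%, 0.587% and 0.563% of gene reads in the knockout libraries and 0.442%, 0.448% and 0.634% in the parental ones, and the groups overlapped in this share. Relative to the mean of the other parental libraries, parental replicate 3 held AKR7A3 at 6.40 times, AKR1B10 at 3.67 times and AKR1B15 at 2.38 times. AKR7A2 stood at 1.46 times that mean, AKR1C1 at 1.45 times, AKR1A1 at 1.21 times and AKR1C3 at 1.13 times. AKR1B1 and AKR1C4 stood at 1.02 times, and AKR1C2 was lower, at 0.842 times.

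Besides the members, 18 rows carry an AKR symbol, of which 8 had no read in any library. AKR1C7P, a pseudogene of the same cluster, had 374, 390 and 223 reads in the parental and 263, 257 and 308 in the knockout libraries and did not pass, nor did AKR1C8P and AKR7L. Without parental replicate 3, AKR1C7P passed at -0.49 and AKR7L at 1.18. AKR1D1, which encodes the steroid reductase of bile acid synthesis, had 26, 25 and 6 reads in the parental libraries and 1, 0 and 0 in the knockout libraries. Scaled, the parental sum was 56.5 times the knockout sum (95% interval from counting alone 9.73 to 2269), and the gene was below the filter and not tested.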
